A study of Mus musculus with 15 samples.

Results

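Quadriceps muscle of adult mouse offspring was compared between animals with 1 high-fat-fed parent and a dam that had exercised in pregnancy, and control offspring of chow-fed, sedentary parents. The comparison took 6 of the 15 libraries of the series, 3 with a high-fat-fed mother (label MHE) and 3 with a high-fat-fed father (label PHE), and set them against the 3 control libraries (label NCS). Genes were kept where the mean normalized count over all 15 libraries was at least 10, which left 13499 of 50686 genes. Of these, 10915 (80.9%) differed from controls in the same direction in the MHE and in the PHE libraries.

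The parents were C57BL/6 mice. In MHE, females ate a 60% high-fat diet for 6 weeks before mating with lean males, and each was housed alone with a running wheel from the day that pregnancy was established. In PHE, males had that diet for 6 weeks, and the lean dams they were mated with had running wheels in pregnancy. The sedentary groups MHS and PHS had the same parental diets but locked wheels, and the controls NCS had chow-fed parents and locked wheels. Parents therefore differed from controls in both diet and exercise, and no group of exercised dams with chow-fed parents was analysed here, so the diet of the parent and the exercise of the dam cannot be told apart in the comparison with controls. Offspring of all groups ate chow without exercise from the day after birth, and their muscle was taken at 10 months of age. The same 3 controls serve the maternal and the paternal arm. The labels do not say which animals were littermates, so each p-value reflects only the variation among the animals sequenced. The leading part of the sample title codes was F3, F5 and F7 in MHE. It was F1, F2 and F6 in PHE, and F1, F1 and F6 in NCS. MHE shared no leading code with controls, so in that arm the code and the group cannot be told apart.

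The 14 libraries whose whole reads could be recovered from the deposited values held 18457663 to 26981745 reads. The read total of control replicate 2 was not used here, and its deposited values summed to 23428238 normalized counts. The 10 muscle fibre markers were all measured, with summed levels of 3922166 to 5083963 normalized counts in MHE, 4742595 to 5976115 in PHE and 4375585 to 6436605 in NCS. Control replicate 2 stood apart from the other 8 libraries of the comparison. It had values above 0 for 17699 genes, against 19062 to 20296 in the other 8, and genes of a hepatocyte list had 337.6 counts per 1e6 normalized counts, against 65.6 to 98.5. It had the highest value of the 9 libraries for 35 of the 36 measured hepatocyte genes, with a list median of 3.41 above the control mean on the log2 scale. Results are therefore also given without this control, which leaves 2.

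Skeletal muscle adjusts its mass by balancing protein synthesis against breakdown. Insulin and growth factor signals hold FoxO transcription factors in the cytoplasm; when these signals weaken or glucocorticoids rise, FoxO factors switch on ubiquitin ligases that mark myofibrillar proteins for the proteasome, together with genes of autophagy. The muscle also contains motor and sensory axons wrapped by Schwann cells, capillaries with their pericytes, and satellite cells, so bulk RNA reports on all of these. In bulk tissue, fewer cells of a type and less RNA per cell cannot be told apart.

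No gene passed an adjusted p of 0.05 in the pooled comparison of the 6 exercised libraries with the 3 controls (limma on log2 of the normalized count plus 1, Benjamini-Hochberg adjustment over 13499 genes, 0% called). The lowest adjusted p was 0.222. At an unadjusted p under 0.05, limma gave 2026 genes, of which 1200 (8.89% of all genes) had higher and 826 (6.12%) lower means in the exercised groups. Without control replicate 2 that count was 707 genes, or 5.24%. Without control replicate 3 it was 3105. Leaving out MHE replicate 2 gave 69 genes past the adjusted threshold. On the recovered reads of the 14 libraries, which include 2 controls, edgeR, DESeq2 and limma voom each called 0 genes, and their counts at an unadjusted p under 0.05 were 703, 749 and 699. All values below are therefore descriptions of differences that did not pass the test over all genes.

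Of the 10915 genes with the same direction in both arms, 5621 (41.6% of all genes tested) had higher and 5294 (39.2%) lower means than controls. Both arms are measured against the same 3 controls, so a high or low control value moves both arms together. Over all genes, pooled means were higher than in controls for 50.6% and lower for 49.4%. At an unadjusted limma p under 0.05, 663 genes (4.91%) were higher and 520 (3.85%) lower in MHE, and 1092 (8.09%) higher and 758 (5.62%) lower in PHE. In both arms at once, 470 genes (3.48%) were higher and 267 (1.98%) lower. All 6 exercised values lay above the 3 control values for 402 genes (2.98%) and below them for 324 genes (2.4%). From these, 12 genes in each direction with the smallest unadjusted p and a group mean of at least 50 are described one by one. The adjusted limma p was 0.222 for all 24, and edgeR without control replicate 2 gave an adjusted p of 0.927 for all 24. An exact two-sided permutation test of 6 against 3 libraries gave p = 0.0238 for each of the 24, the smallest value that the 84 splits allow, which the absence of overlap fixes.

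Among the 12 genes with higher values in exercised groups, Slc8a1 had the largest difference. It encodes a sodium-calcium exchanger of the plasma membrane and lies on chromosome 17 from 81373105 to 81738377 (minus strand, mm10). Its normalized counts were 289, 272 and 303 in MHE, 437, 378 and 318 in PHE, and 137, 157 and 246 in NCS. Every exercised value lay above every control value, and the lowest exercised value, in MHE replicate 2, was close to that of control replicate 3. The pooled log2 difference was 0.91 ± 0.16 (SE; limma, adjusted p = 0.222), and it was 0.55 once trends with GC content and transcript length were removed within each library. Samd4, which encodes an RNA-binding repressor of translation, had 4934, 3203 and 4154 in MHE, 4234, 5246 and 4073 in PHE, and 2250, 2262 and 2979 in NCS. Its exercised and control values again did not overlap, and its log2 difference was 0.78 ± 0.16. Pde4d, a phosphodiesterase that degrades cyclic AMP, averaged 5982 ± 635 in MHE, 7106 ± 788 in PHE and 4542 ± 419 in NCS (SD, n = 3 each).

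Garem1, a regulator of Erk signalling downstream of growth factor receptors, had a log2 difference of 0.88 ± 0.20. Its values were 540, 335 and 695 in MHE, 471, 665 and 533 in PHE, and 268, 267 and 323 in NCS. MHE replicate 2 was the lowest of the 6 exercised libraries for Garem1, as it was for Samd4. Clip1, which encodes a protein of growing microtubule ends, was the most abundant of the 12 in normalized counts, with 25509, 21158 and 35828 in MHE, 28377, 35784 and 25843 in PHE, and 16773, 15777 and 20338 in NCS. Its lowest exercised value, once more in MHE replicate 2, exceeded the highest control by little. Others of the 12 act in protein handling. Uggt1, the folding sensor for glycoproteins in the endoplasmic reticulum, had a log2 difference of 0.42 ± 0.10. Optn, an autophagy receptor, had 1747, 1811 and 1609 in MHE, 1739, 1794 and 1915 in PHE, and 1311, 1338 and 1462 in NCS. This was the smallest difference among the 12, at 0.37 ± 0.08 on the log2 scale. Naa25, a subunit of the NatB complex that acetylates protein N-termini, differed by 0.61 ± 0.12. Ythdf2, which binds N6-methyladenosine in mRNA, differed by 0.48 ± 0.11, and Hsd17b7, an enzyme of cholesterol synthesis, by 0.54 ± 0.11. Zkscan1 and Edrf1 completed the 12, with log2 differences of 0.58 and 0.65.

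Among the 12 genes with lower values in exercised groups, Scd2 had the smallest p. It encodes a stearoyl-CoA desaturase that makes monounsaturated fatty acids and lies on chromosome 19 from 44293674 to 44306864 (plus strand, mm10). Its normalized counts were 260, 285 and 291 in MHE, 267, 227 and 331 in PHE, and 405, 614 and 470 in NCS. No exercised value reached the lowest control, and control replicate 2 was the highest of the 9. The log2 difference was -0.83 ± 0.16 (limma, adjusted p = 0.222), and -0.66 without control replicate 2. Slc36a2, a proton-coupled amino acid transporter, had 36.6, 34 and 42.8 in MHE, 31.8, 31.8 and 45 in PHE, and 68.1, 122 and 73.9 in NCS. The groups did not overlap, and control replicate 2 again had the highest value. Its log2 difference was -1.19 ± 0.25, and -0.93 without that control.

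Stum showed the largest difference in this direction, -1.22 ± 0.26, with 31.6, 49.8 and 19.2 in MHE, 28.4, 42.4 and 34.8 in PHE, and 81.3, 98 and 59.6 in NCS. Kcnn2, a calcium-activated potassium channel of the small-conductance type, had 13.2, 23.1 and 23.7 in MHE, 27.2, 34.2 and 21.2 in PHE, and 49.8, 62.6 and 40.9 in NCS. Both genes are at low counts, and their groups did not overlap. Cspg4, the NG2 proteoglycan of pericytes and other perivascular and glial cells, averaged 275 ± 20.3 in MHE, 218 ± 20.1 in PHE and 396 ± 116 in NCS (SD, n = 3 each). Its log2 difference of -0.66 ± 0.14 was -0.43 without control replicate 2. Afap1l2, an adaptor protein of Src signalling, differed by -0.82 ± 0.17. Dusp14, a phosphatase that acts on MAP kinases, differed by -0.96 ± 0.21, and -0.73 without control replicate 2. Pfas, an enzyme of purine synthesis, differed by -0.51 ± 0.11, and Neu2, the cytosolic sialidase, by -0.66 ± 0.15. Fam117a, Ccdc9b and Magix had log2 differences of -0.97, -0.48 and -0.38. The absence of overlap fixes the direction of these 24 genes when 1 library is left out. All 24 kept it when the GC and length trends were removed.

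**Figure D1:**
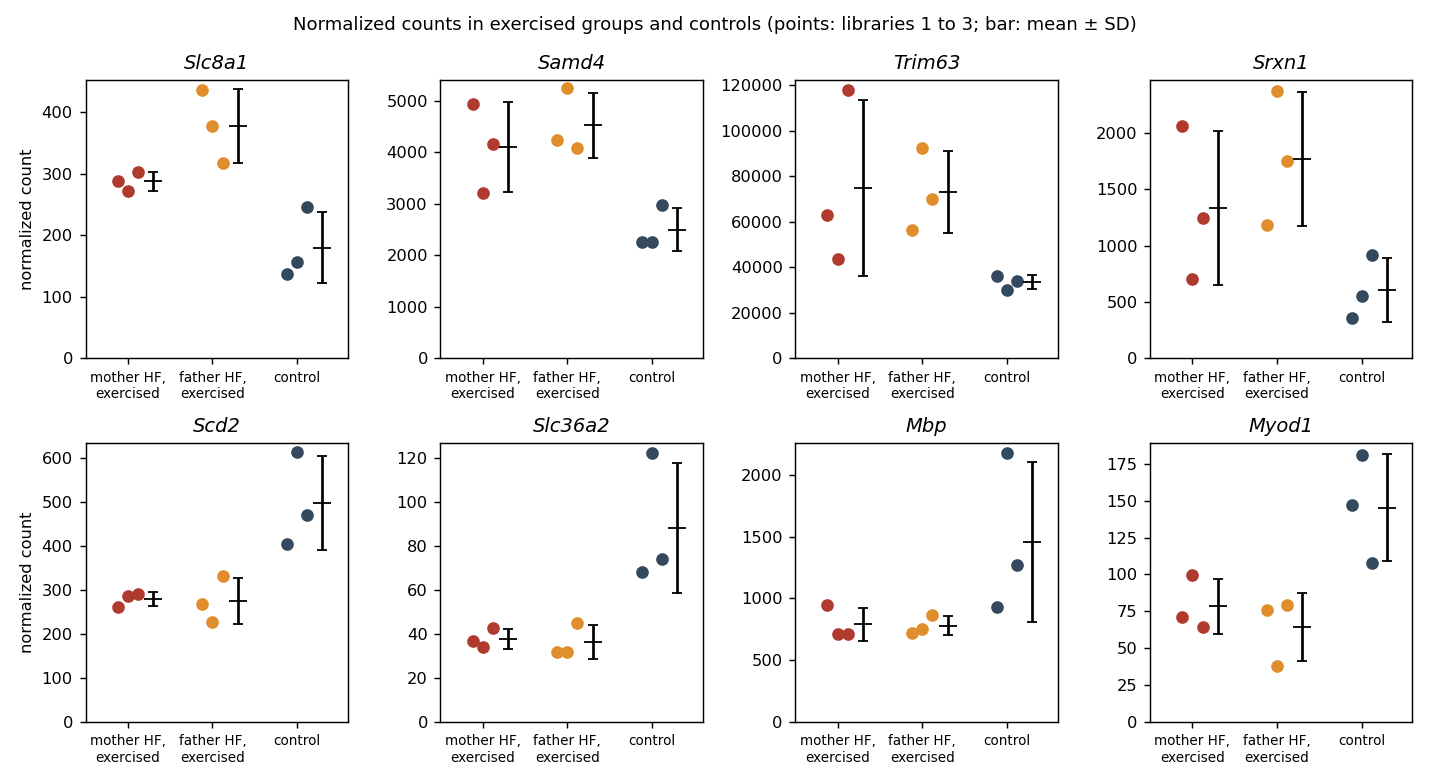
Normalized counts of 8 genes (y axis, linear, from 0) in the 3 MHE, 3 PHE and 3 NCS libraries, with points for libraries and bars for mean ± SD. Slc8a1, Samd4 and Trim63 lie higher and Scd2, Slc36a2 and Myod1 lower in all 6 exercised libraries than in the 3 controls, while Srxn1 and Mbp overlap with controls; control replicate 2 is the highest point for Mbp at 2182.

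The MHE and PHE arms were compared directly in a test that uses no controls. No gene passed an adjusted limma p of 0.05 between MHE and PHE, where the lowest adjusted p was 1.0. At an unadjusted p under 0.05, 176 genes (1.3%) were higher and 58 (0.43%) lower in MHE than in PHE. edgeR, DESeq2 and voom on recovered reads called 0 genes between the arms, and their unadjusted counts were 296, 287 and 230. None of the 24 genes reached an unadjusted p of 0.05 between the arms. Slc8a1 had log2 differences from controls of 0.72 in MHE and 1.1 in PHE, and Cspg4 of -0.49 in MHE and -0.82 in PHE. Kcnn2 ran the other way, with -1.33 in MHE and -0.87 in PHE. With 3 libraries a group, these values do not show that the arms were alike.

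**Figure D2:**
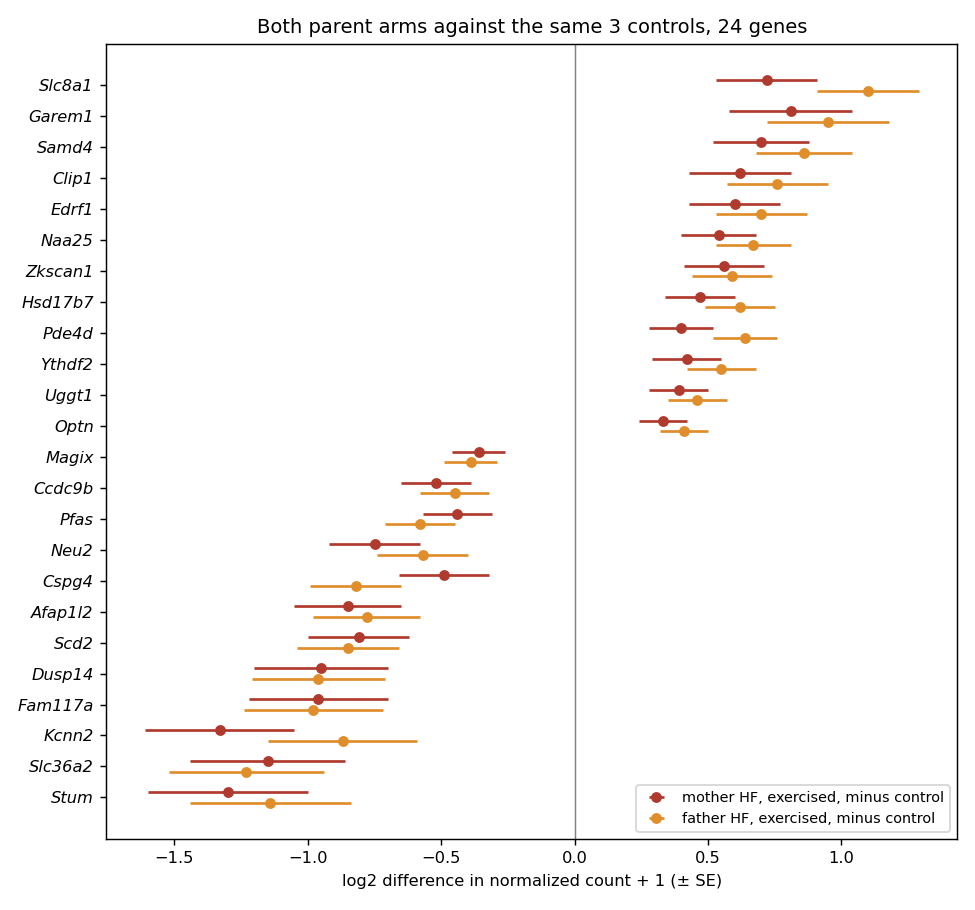
Log2 differences from controls (x axis, ± SE) of the 24 genes (y axis), for MHE and for PHE against the same 3 controls. Each pair of points lies on 1 side of 0, as the choice of these genes fixes; the largest values are 1.1 for Slc8a1 in PHE and -1.33 for Kcnn2 in MHE.

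Exercised groups were also set against the 6 sedentary libraries with a high-fat-fed parent (MHS and PHS), again without controls. Limma gave 0 genes at an adjusted p of 0.05, with a lowest adjusted p of 0.197. Of the rest, 856 genes (6.34%) were higher and 731 (5.42%) lower at an unadjusted p under 0.05. edgeR and voom on recovered reads called 0 genes, and their unadjusted counts were 2020 and 1745. DESeq2 on the same reads called 173 genes (1.28%), 74 higher and 99 lower in the exercised groups. MHS replicates 2 and 3 and PHS replicate 1 carried liver transcripts, with 5861, 719.1 and 403.4 counts per 1e6 normalized counts in the hepatocyte list. Without these libraries and control replicate 2, limma gave 711 genes at an unadjusted p under 0.05. The 24 genes were chosen for their values in the same 6 exercised libraries, which favours a difference in the same direction from any other group, so their differences from sedentary groups are given as values only.

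Slc8a1 averaged 288 ± 15.5 in MHE and 378 ± 59.7 in PHE, against 241 ± 28.2 in MHS and 237 ± 21.7 in PHS (SD, n = 3 each). Kcnn2 averaged 20 ± 5.86 in MHE and 27.5 ± 6.47 in PHE, against 46.9 ± 7.6 in MHS and 48.2 ± 8.36 in PHS, with a log2 difference of -1.01 ± 0.20. For Slc36a2 the groups were close, with means of 37.8 in MHE and 36.2 in PHE, against 37.7 in MHS and 46.6 in PHS. Dusp14 and Optn likewise differed little from sedentary groups, by -0.07 and 0.06 on the log2 scale. No exercised value of Kcnn2 overlapped with a sedentary or control value, which the choice of these genes favours. For Slc8a1, MHS replicate 3, at 273, lay just above MHE replicate 2, at 272. For Slc36a2, Dusp14 and Optn, exercised and sedentary values lay near each other.

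The muscle atrophy program was described by a list of 33 FoxO targets and atrophy genes, all measured. Means were higher in exercised groups than in controls for 25 of the 33 and lower for 8, with a median log2 difference of 0.40, against 0.01 over all genes. The median was 0.33 in MHE and 0.44 in PHE, and 0.20 in PHE with the leading part of the title codes as a covariate. No member passed the adjusted limma test; 14 were higher and 0 lower at an unadjusted p under 0.05, against 8.89% of all genes higher and 6.12% lower. The counts of every list below are set against these shares. Without control replicate 2 the median was 0.33, and 8 members were higher at an unadjusted p under 0.05, against 418 of 13499 genes higher and 289 lower. Trim63 encodes MuRF1, a ubiquitin ligase of the sarcomere, and lies on chromosome 4 from 134315120 to 134329629 (plus strand, mm10). Its normalized counts were 62892, 43773 and 118067 in MHE, 56604, 92598 and 70144 in PHE, and 36221, 30242 and 34199 in NCS. All exercised values lay above all controls, with a spread among exercised libraries many times that among controls. The log2 difference was 1.07 ± 0.29 (limma, adjusted p = 0.223), and 0.82 ± 0.24 against sedentary groups (limma, adjusted p = 0.394). Sedentary values were 50428, 44321 and 48107 in MHS and 28891, 21955 and 56876 in PHS, so that they overlapped with exercised values.

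Fbxo32, the other muscle ubiquitin ligase of this program (atrogin-1), had 48357, 33085 and 62018 in MHE, 41583, 52659 and 52093 in PHE, and 36825, 22560 and 38810 in NCS. MHE replicate 2 lay within the controls, and the log2 difference of 0.57 ± 0.21 was 0.33 without control replicate 2. Foxo1, the transcription factor itself, had 1566, 747 and 1878 in MHE, 1739, 2747 and 1118 in PHE, and 1303, 470 and 458 in NCS. Control replicate 1 overlapped with the exercised values. Cdkn1a, which encodes the cell cycle inhibitor p21, had 2921, 1610 and 5336 in MHE, 2186, 3159 and 3396 in PHE, and 911, 1326 and 1565 in NCS. Its groups did not overlap, and its log2 difference was 1.23 ± 0.35. Ube4a, a ubiquitin chain elongation factor, differed by 0.60 ± 0.15. The highest value of the 9 libraries was in MHE replicate 3 for 14 of the 33 members and in PHE replicate 2 for 7. Against sedentary groups the median of the list was 0.33. The list medians of MHS replicate 1 (0.19) and PHS replicate 3 (0.27) lay within the exercised range, and those of the other sedentary libraries lay below it.

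The 34 proteasome subunits had higher means for 28 and lower means for 6, with a median log2 difference of 0.15. At an unadjusted p under 0.05, 10 were higher and 0 lower, and 1 was higher without control replicate 2, when the median was 0.10. Control replicate 2 had the lowest value of the 9 libraries for 21 of the 34. Control replicate 3 had a list median of 0.17, within the exercised range of 0.11 to 0.22. Psmd11, a lid subunit, averaged 0.54 ± 0.13 above controls on the log2 scale, and 0.27 with GC and length trends removed. Psmc2 and Psmd12, an ATPase and a lid subunit of the regulatory particle, differed by 0.25 and 0.28. With the trends removed Psmc2 differed by 0.02. Of 35 genes of autophagy and mitophagy, 25 had higher and 10 lower means, with a median of 0.11 and 11 higher at an unadjusted p under 0.05. Without control replicate 2 there were 4, with a median of 0.05. Gabarapl1, which is attached to autophagosome membranes, had 6179, 2995 and 6192 in MHE, 3213, 7493 and 5461 in PHE, and 1802, 2237 and 3778 in NCS. Control replicate 3 overlapped with MHE replicate 2 and PHE replicate 1. Nbr1, an autophagy receptor, differed by 0.26 ± 0.09 with no overlap.

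Glucocorticoid and fasting response genes, 26 measured, had the highest median among the lists with at least 10 measured members, at 0.45. It was 0.39 in MHE and 0.47 in PHE, and 0.43 without control replicate 2. Higher means were found for 19 and lower means for 7, with 11 higher and 1 lower at an unadjusted p under 0.05 (8.89% and 6.12% of all genes). MHE replicate 3 had the highest value of the 9 libraries for 14 of the 26, with a list median of 0.75 in that library, against 0.18 in MHE replicate 2. With the title codes as a covariate the PHE median was 0.28. Against sedentary groups the median of the list was 0.30. The list median of PHS replicate 3, at 0.40, lay within the exercised range, and those of the other sedentary libraries lay below it. All 6 exercised values lay above controls for 5 members, against 2.98% of all genes. Cebpb, a transcription factor of the fasting response, had 839, 514 and 658 in MHE, 593, 734 and 644 in PHE, and 392, 428 and 381 in NCS. Its log2 difference was 0.71 ± 0.19, and 0.94 with GC and length trends removed. Lpin1, a phosphatidate phosphatase and coactivator, had 17992, 15793 and 25576 in MHE, 19569, 23493 and 18463 in PHE, and 13663, 12869 and 13688 in NCS. Both genes had no overlap between exercised and control values. Pdk4, the kinase that turns off pyruvate dehydrogenase in fasting, averaged 0.54 ± 0.19 above controls on the log2 scale, and 0.35 without control replicate 2, with overlapping values. Some of these members, Cdkn1a among them, are also on the atrophy list.

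Insulin and AMPK signalling genes had 19 higher and 14 lower means of 33 measured, with a median log2 difference of 0.10. At an unadjusted p under 0.05, 10 were higher and 2 lower. Gsk3b, the kinase that restrains glycogen synthase, had 3682, 2147 and 3607 in MHE, 2882, 4326 and 3077 in PHE, and 1977, 1729 and 2164 in NCS. MHE replicate 2 lay just below the highest control. Insr, the insulin receptor, differed by 0.50 ± 0.14 with no overlap. Irs1, the receptor's main adaptor in muscle, had 1512, 597 and 1105 in MHE, 881, 1055 and 916 in PHE, and 562, 665 and 504 in NCS, and its log2 difference from sedentary groups was -0.05. Slc2a4, the insulin-responsive glucose transporter GLUT4, differed from controls by -0.09 ± 0.14, and by 0.01 with GC and length trends removed. Cs, the citrate synthase often used as a measure of mitochondrial content, differed by -0.12 ± 0.08. Ppargc1a, the coactivator PGC-1α of mitochondrial biogenesis, differed by -0.22 ± 0.30, and by 0.02 with DESeq2 or edgeR on recovered reads without control replicate 2. Its relative Ppargc1b had 107, 155 and 104 in MHE, 126, 117 and 135 in PHE, and 162, 269 and 158 in NCS, with no overlap and a log2 difference of -0.63 ± 0.19, which was -0.38 without control replicate 2.

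The 32 genes of the NRF2, glutathione and thioredoxin list divided evenly, 16 higher and 16 lower, with a median of -0.01. All 6 members at an unadjusted p under 0.05 were higher, and there were also 6 without control replicate 2. Srxn1, the sulfiredoxin that restores oxidised peroxiredoxins, had 2058, 704 and 1248 in MHE, 1186, 2370 and 1749 in PHE, and 356, 550 and 915 in NCS. MHE replicate 2 overlapped with control replicate 3, and the log2 difference was 1.35 ± 0.33. Nfe2l2, which encodes NRF2, differed by 0.61 ± 0.16, and Txnrd1, the cytosolic thioredoxin reductase, by 0.50 ± 0.13, both with MHE replicate 2 inside the control range. Of 23 genes of the unfolded protein and amino acid stress response, 15 had higher and 8 lower means, with a median of 0.11. Xbp1, a transcription factor of that response, had 1886, 1597 and 1629 in MHE, 1600, 1979 and 1567 in PHE, and 1314, 1094 and 1447 in NCS, without overlap. Vldlr, a lipoprotein receptor, differed by 0.46 ± 0.15 and also did not overlap.

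Schwann cell and myelin genes had the lowest median among the 39 lists, -0.48 over 26 measured members. Means were lower in exercised groups for 25 and higher for 1, with 10 lower at an unadjusted p under 0.05 (6.12% of all genes). The median was -0.49 in MHE and -0.55 in PHE. Control replicate 2 had the highest value of the 9 libraries for 21 of the 26 members, and without it the median was -0.31 with 4 lower at an unadjusted p under 0.05. The summed level of the list was 4195 to 5158 in MHE, 4227 to 5153 in PHE and 5074 to 10322 in NCS. Mbp, myelin basic protein, had 945, 713 and 710 in MHE, 720, 748 and 865 in PHE, and 929, 2182 and 1268 in NCS. Control replicate 1 lay below MHE replicate 1. The log2 difference of Mbp was -0.81 ± 0.22, and -0.48 without control replicate 2. Prx, the periaxin of myelinating Schwann cells, was lower in all 6 exercised libraries than in the 3 controls, though PHE replicate 3 and control replicate 1 both round to 566, with a log2 difference of -0.87 ± 0.24, and -0.50 without control replicate 2. Pmp22 differed by -0.65 ± 0.18, and by -0.39 without that control. Against sedentary groups the median of the list was -0.15. Relative to controls, the list median was below 0 in the sedentary libraries as well. It was -0.30, -0.05 and -0.40 in MHS and -0.71, -0.12 and -0.24 in PHS. The share of nerve in each piece of muscle was not tested.

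Sterol and fatty acid synthesis genes did not share a direction, with 15 higher and 16 lower of 31 and a median of -0.01. Besides Scd2, Dhcr7, a reductase of the final steps of cholesterol synthesis, was below all controls, with 70.2, 71.6 and 69.8 in MHE, 76, 62.4 and 64.5 in PHE, and 124, 115 and 81.9 in NCS. Insig1, which retains the sterol sensor in the endoplasmic reticulum, ran the other way, at 0.68 ± 0.21 on the log2 scale. Smooth muscle and pericyte genes were lower for 13 and higher for 2 of 15, with a median of -0.32 and 7 lower at an unadjusted p under 0.05. The list medians of control replicates 1 and 3, at -0.1 and -0.25, lay within the exercised range. Without control replicate 2 the median was -0.18, with 1 lower. Smtn, a contractile protein of smooth muscle, differed by -0.50 ± 0.16, and by -0.32 without that control. Tagln, an actin-binding protein of smooth muscle, had 32.6, 55.9 and 33.8 in MHE, 21.6, 18.8 and 32.3 in PHE, and 49.8, 65.7 and 48.1 in NCS, with MHE replicate 2 inside the control range.

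Of 34 growth factors and myokines, 13 had higher and 21 lower means, with a median of -0.10, which was -0.05 without control replicate 2. Mstn encodes myostatin, which restrains muscle growth, and lies on chromosome 1 from 53061640 to 53068079 (plus strand, mm10). It had 1402, 941 and 1644 in MHE, 1008, 1600 and 1368 in PHE, and 799, 534 and 753 in NCS. All exercised values lay above all controls, with a log2 difference of 0.92 ± 0.25 (limma, adjusted p = 0.223). In the sedentary groups Mstn averaged 686 ± 312 in MHS and 738 ± 81.6 in PHS (SD, n = 3 each), and the log2 difference of exercised from sedentary groups was 0.92 ± 0.21 (limma, adjusted p = 0.394). MHS replicate 1, at 1013, lay above MHE replicate 2 and PHE replicate 1. With GC and length trends removed the difference from controls was 0.59. Vegfa, the vascular growth factor, had 3656, 3917 and 2767 in MHE, 2300, 2791 and 3259 in PHE, and 4515, 6405 and 3643 in NCS, with a log2 difference of -0.62 ± 0.18, and -0.40 without control replicate 2. Igfbp5, a binding protein of insulin-like growth factors, differed by -0.55 ± 0.20, with control replicate 3, at 2195, inside the exercised range.

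Satellite cell and myogenic genes were lower for 11 and higher for 8 of 19, with a median of -0.13. This median was 0.04 without control replicate 2, so that its sign turned. Myod1, the myogenic transcription factor, had 71.2, 99.6 and 64.2 in MHE, 76, 37.7 and 79 in PHE, and 147, 181 and 108 in NCS. The groups did not overlap, and the log2 difference was -1.04 ± 0.27. Heyl, a Notch effector, differed by -0.63 ± 0.20 with overlap. At the neuromuscular junction, 17 genes were lower and 4 higher of 21, with a median of -0.19. At an unadjusted p under 0.05, 5 were lower and 1 higher, and 0 in each direction without control replicate 2, when the median was -0.17. The list median of control replicate 3, at -0.26, lay within the exercised range. Ache, acetylcholinesterase, had 637, 901 and 840 in MHE, 1047, 817 and 791 in PHE, and 1780, 1574 and 757 in NCS, and control replicate 3 lay among the exercised values. Lrp4, the agrin receptor, differed by -0.41 ± 0.15, and by -0.21 without control replicate 2. Calcium release and excitability genes were lower for 25 and higher for 5 of 30, with a median of -0.20. At an unadjusted p under 0.05, 5 were lower and 0 higher, and 1 was lower without control replicate 2, when the median was -0.16. With GC and length trends removed the median was -0.08. Control replicate 3 had a list median of -0.16, within the exercised range. Clcn1, the chloride channel that stabilises the resting membrane, differed by -0.56 ± 0.16. Its control values of 4685, 4230 and 3367 overlapped with MHE replicate 2 at 3668 and PHE replicate 1 at 3422.

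Nuclear genes of the respiratory chain had small differences in 1 direction. Complex I had 33 lower and 4 higher means of 37, with a median of -0.13, and complexes II to V had 37 lower and 5 higher of 42, with a median of -0.15. At an unadjusted p under 0.05, 8 and 7 members were lower. Without control replicate 2 these were 0 and 2, with medians of -0.10 and -0.07. With GC and length trends removed the medians were -0.06 and -0.07. The list medians of control replicate 3 were -0.12 and -0.09, against exercised ranges of -0.2 to -0.07 and -0.21 to -0.09. Cyc1, cytochrome c1 of complex III, had 6754, 7353 and 6616 in MHE, 6589, 7415 and 6764 in PHE, and 8366, 9813 and 7190 in NCS, with control replicate 3 inside the exercised range. Against sedentary groups, 10 complex I and 19 complex II to V genes were lower at an unadjusted p under 0.05 (5.42% of all genes), with medians of -0.14 and -0.17. Ndufb8, a complex I subunit, differed from controls by -0.27, and by -0.12 without control replicate 2.

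Ribosomal protein genes followed the same direction. Cytosolic ribosomal proteins had 65 lower and 11 higher means of 76, with a median of -0.17, which was -0.10 in MHE and -0.24 in PHE. At an unadjusted p under 0.05, 16 were lower and 0 higher (6.12% and 8.89% of all genes), and 2 were lower without control replicate 2, which had the highest value of the 9 libraries for 43 of the 76. With GC and length trends removed, 4 were lower and the median was -0.09. Control replicate 3 had a list median of -0.13, within the exercised range. Rps12 of the small subunit had 2206, 2396 and 2610 in MHE, 2185, 2198 and 2263 in PHE, and 2707, 2924 and 2596 in NCS, so that MHE replicate 3 overlapped with controls. Mitochondrial ribosomal proteins were lower for 30 and higher for 11 of 41, with a median of -0.09 and 8 below all controls, against 2.4% of all genes. At an unadjusted p under 0.05, 8 were lower and 0 higher, and 1 was lower without control replicate 2. With GC and length trends removed, 3 were lower and 2 higher, with a median of -0.07. Mrpl28 had 876, 1009 and 884 in MHE, 930, 908 and 897 in PHE, and 1079, 1406 and 1055 in NCS. Its groups did not overlap, and its log2 difference of -0.35 was -0.22 without control replicate 2 and -0.15 with GC and length trends removed.

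Interferon and antigen presentation genes had a median above controls and below the pooled sedentary groups. Of 35 measured, 26 had higher and 9 lower means in exercised groups than in controls, with a median of 0.22 and 10 higher and 1 lower at an unadjusted p under 0.05. Without control replicate 2 the median was 0.14, with 5 higher. Against the pooled sedentary groups the median was -0.27, and 16 members were lower and 0 higher at an unadjusted p under 0.05 (5.42% and 6.34% of all genes). The list medians relative to controls were 0.77, 0.66 and 0.51 in MHS, against 0.02, 0.02 and 0.52 in MHE. In PHS they were 0.24, 0.31 and 0.28, close to the 0.39, 0.16 and 0.23 in PHE. Control replicates 1, 2 and 3 stood at -0.11, -0.06 and 0.28, so that control replicate 3 lay within the exercised range. The summed level was 8215 to 10302 in MHE and 8880 to 10251 in PHE, 13080 to 13587 in MHS, 8970 to 10407 in PHS, and 7843 to 9329 in NCS. Gbp4, a guanylate-binding protein induced by interferon, averaged 185 ± 40.9 in MHE and 188 ± 61 in PHE, 401 ± 207 in MHS, 249 ± 61.7 in PHS, and 105 ± 21 in NCS (SD, n = 3 each). Its exercised values lay above all controls, with a log2 difference of 0.81 ± 0.28, while the log2 difference from sedentary groups was -0.72 ± 0.23. Iigp1, an interferon-inducible GTPase, differed by 1.10 ± 0.34 from controls and by -0.50 ± 0.27 from sedentary groups.

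**Figure D3:**
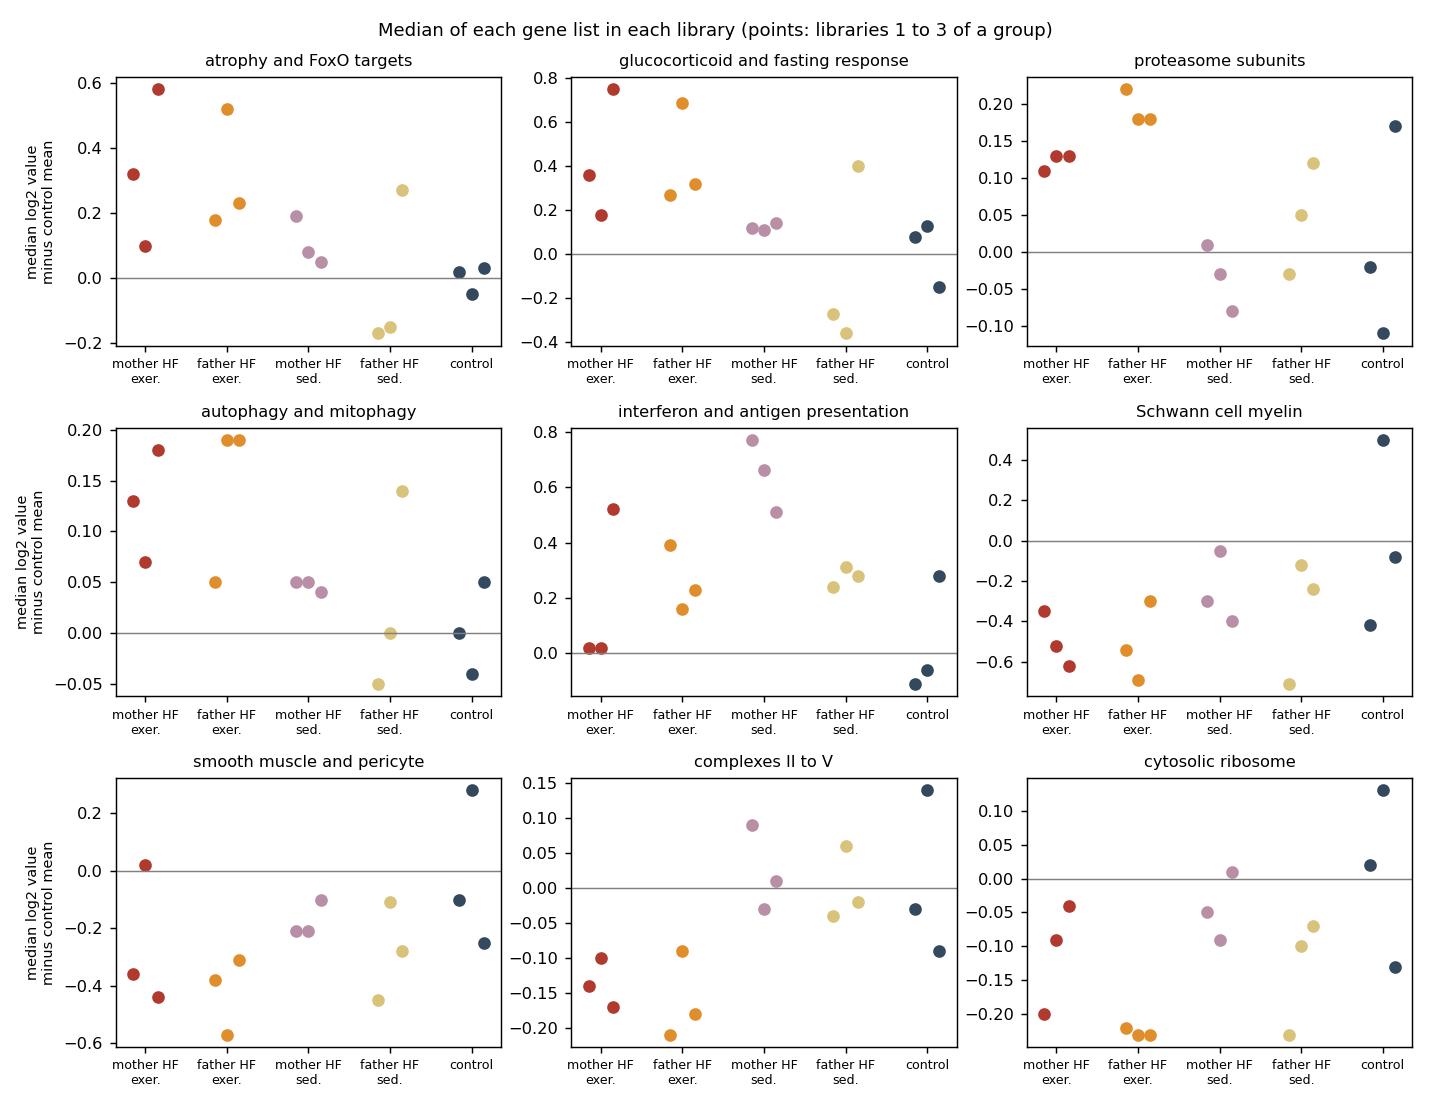
Median over the members of 9 gene lists (y axis, log2 value minus the mean of the 3 controls) in each library of the 5 groups (x axis). The atrophy list is above 0 in all 6 exercised libraries, from 0.10 to 0.58. It stands at 0.19, 0.08 and 0.05 in MHS and at -0.17, -0.15 and 0.27 in PHS. The Schwann cell list is below 0 in all 6 exercised libraries, from -0.69 to -0.30, and also in all 6 sedentary ones, from -0.71 to -0.05. Control replicates 1, 2 and 3 stand at -0.42, 0.50 and -0.08 in the Schwann cell panel, so that control replicate 1 lies within the exercised range.

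The differences from controls ran with the base composition of the transcripts, as did those from sedentary groups. Across 13477 genes with an annotated transcript, Spearman's rho between GC content and the pooled log2 difference was -0.472, and with transcript length it was 0.218; genes within these libraries are not independent replicates. In 4 equal bins of genes by GC content, the lowest bin (median 42.3%) had a median log2 difference of 0.226 and the highest (median 57.2%) had -0.145. By library, rho between GC content and the value relative to the 15-library mean was -0.408, 0.000952 and -0.022 in MHE, -0.296, -0.337 and -0.424 in PHE, and 0.0772, 0.571 and -0.298 in NCS. Control replicate 2 had the highest rho of the 9 libraries, and control replicate 3 lay within the range of the exercised libraries. In the sedentary libraries rho was 0.155, 0.175 and 0.586 in MHS and -0.564, -0.451 and 0.557 in PHS. For the log2 difference between exercised and sedentary groups, rho with GC content was -0.449. With the GC and length trends removed within each library, limma gave 0 genes at an adjusted p of 0.05 in both comparisons. At an unadjusted p under 0.05, 1447 were higher and 417 lower against sedentary groups, and 1182 higher and 646 lower against controls. Against controls, the median of the atrophy list was then 0.42, that of the glucocorticoid list 0.36 and that of the Schwann cell list -0.48. The part of base composition in single differences was not tested.

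**Figure D4:**
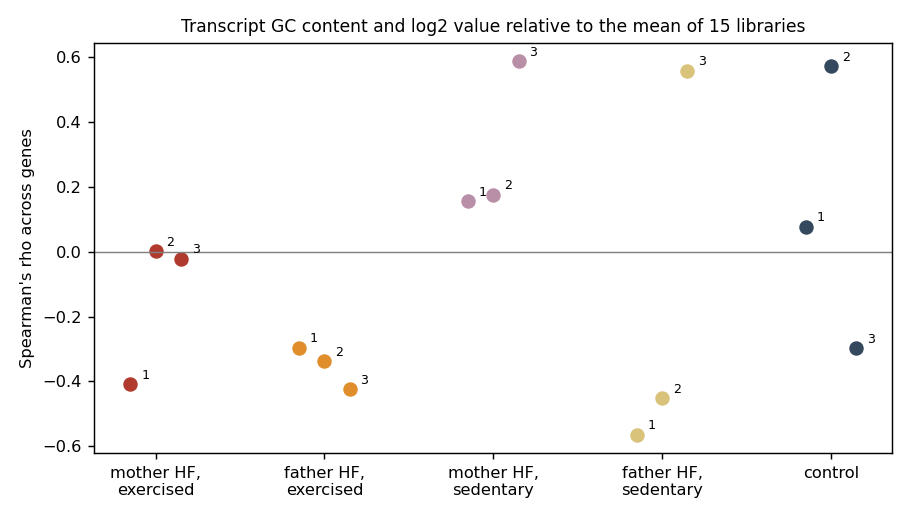
Spearman's rho across genes (y axis) between transcript GC content and the log2 value relative to the mean of the 15 libraries, with 1 numbered point per library for the 5 groups (x axis). Control replicate 2 stands at 0.571, MHS replicate 3 at 0.586 and PHS replicate 3 at 0.557, while the 6 exercised libraries range from -0.424 to 0.000952. PHS replicates 1 and 2 stand at -0.564 and -0.451.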

How the data were processed

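Total RNA of quadriceps muscle was extracted with TRIzol, depleted of ribosomal RNA with a stranded kit and sequenced as 100-bp single-end reads, per the labels' protocols. STAR 2.5.2b, featureCounts 1.5.2, DESeq2 1.11.8 and build mm10 are named per the submitters' processing notes, with no role or order. The deposited values are a signal per gene, namely read counts that the authors had scaled by 1 factor for each library, as the values themselves show. In 14 of the 15 columns all values (100%, tolerance 0.001 of a read) were whole multiples of the value of 1 read, so whole reads were recovered. Recovery of whole reads was not accepted for the column of control replicate 2, so tests on counts left this library out and the planned versions on all 15 libraries were not run. Of 50686 identifiers, 50462 (99.6%) matched GENCODE M21 (the assembly of mm10), which gave names and coordinates; 37187 genes were under the minimum mean and not tested.

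Groups came from the group label, with 3 libraries each; replicate numbers follow accession order. Comparisons were tested with limma 3.58.1 (R 4.3.3) on log2 (normalized count + 1), all 15 libraries in 1 fit, two-sided, with Benjamini-Hochberg adjustment within a comparison. Log2 differences are on that scale and understate changes of low genes. Pooled differences weigh MHE and PHE equally. The fit was tested on simulated data. Alternatives were limma voom, the quasi-likelihood test of edgeR 4.0.16 and the Wald test of DESeq2 1.42.0. Removal of GC and length trends was added after seeing the data. The 39 gene lists, the members and the rule for named genes were chosen with earlier results of these data known. The rule took 12 genes in each direction without overlap, the 3 members of each list with the smallest p, and a short set always given (such as Trim63, Mstn and Ppargc1a). A gene of that set is not reported here. Lists are described by counts and medians, with no test. Of the list symbols, 2 matched no gene (the list of sterol and fatty acid synthesis was drawn up with myelin in mind). Reads shared by near-identical genes, such as members of the Gbp4 and Iigp1 families or ribosomal proteins and their pseudogenes, could be split by the counting.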

Additional observations from a re-analysis of the deposited data

How the results depend on the processing

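The pooled count of 0 genes at an adjusted p of 0.05 stayed at 0 under other pseudocounts, filters, scalings, covariates and tests, and was 0 to 69 when 1 library was left out, with 69 without MHE replicate 2 and 1 without control replicate 3. The pooled count of 2026 at an unadjusted p under 0.05 was 707 (without control replicate 2) to 3105 (without control replicate 3). It was 729 without the 4 libraries with liver transcripts, and 749 with DESeq2, 703 with edgeR, 699 with voom and 689 with TMM factors on the 14 libraries with recovered reads, which lack control replicate 2. The corresponding 1183 of MHE against controls was 469 to 2228 with 1 library left out, 459 without the liver libraries, 1878 without a filter, 764 with only these groups in the fit, and 529, 482, 443 and 465 with DESeq2, edgeR, voom and TMM factors. For PHE against controls, 1850 became 696 to 2853 with 1 library left out, 771 without the liver libraries, 943 with the leading part of the title codes as a covariate, and 707, 696, 666 and 689 with DESeq2, edgeR, voom and TMM factors, with 0 to 1 past the adjusted threshold. Between MHE and PHE, 234 became 146 to 381 with 1 library left out, 140 at a minimum mean of 50, 791 without a filter and 355 with only these groups. Against sedentary groups, 1587 became 981 to 2053 with 1 library left out, 711 without the liver libraries and 669 with the hepatocyte score as a covariate, while 173 passed the adjusted threshold in DESeq2 and 0 to 1 in limma with 1 library left out. The count of genes moving the same way in MHE and PHE was 18019 without a filter, since more genes enter, against 10915. Among named genes, Slc2a4 turned to 0.01 with GC and length trends removed, Ppargc1a to 0.02 (DESeq2, edgeR) and 0.0 (voom, without control replicate 2, or without the liver libraries), and, with 1 library left out, Ppargc1a ranged from -0.51 to 0.0, Myh4 from -0.34 to 0.07 and Myh7 from -0.97 to 0.13. The cause of these shifts was not tested. The title code could not be fitted for the pooled comparison, because MHE shared a leading code only with MHS, which had no other code. No paired analysis was possible because replicate numbers follow accession order and pair no samples. Count tests on all 15 libraries were not run. Depth limits genes at low counts such as Kcnn2 and Slc36a2.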

Other observations

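Some gene groups had opposite medians in the 2 exercised arms, and none held a gene past the adjusted limma test between MHE and PHE. Collagen and matrix genes (45 measured) had a median log2 difference from controls of 0.18 in MHE and -0.19 in PHE, and MHE replicate 3 had the highest value of the 9 libraries for 29 of them, with a median of 0.99 above controls in that library alone. Tendon genes (10 measured) had medians of 0.55 in MHE and -0.15 in PHE. Tnmd, the tenomodulin of tendon, had 52.9, 30.4 and 93.5 normalized counts in MHE, 37.5, 16.5 and 30.6 in PHE, and 30.5, 12.1 and 32.9 in NCS, so that all 3 groups overlapped. Macrophage genes (13 measured) had the highest value in MHE replicate 3 for 12 members.

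Slow fibre genes (17 measured) varied within each group. Their median relative to the control mean was 0.54, 0.24 and -0.33 in MHE, -1.44, 0.27 and 0.12 in PHE, and -0.95, 0.33 and 0.70 in NCS. Myh7, the slow myosin heavy chain, had 30503, 26484 and 14133 in MHE, 3842, 27089 and 23600 in PHE, and 8832, 30628 and 38166 in NCS. PHE replicate 1 and control replicate 1 had the lowest values. Myh4, the fast type IIB myosin, differed from controls by -0.13 ± 0.23 on the log2 scale. The 9 measured mitochondrially encoded genes all had higher means in exercised groups, with a median of 0.51, which was 0.10 without control replicate 2. That library had the lowest list median of the 9 libraries, at -0.81. With GC and length trends removed the median was 0.23. Of the 15 genes on the list, mt-Atp6, mt-Atp8, mt-Co3 and mt-Nd4l had a value of 0 in all 9 libraries, and the reason was not tested.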
